A study of Mus musculus with 2 samples.

Results

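The genes of the mitochondrial genome were described in total RNA from mouse hippocampus, as every gene whose name begins with mt- in the deposited transcript tables. The rule gave 37 of 55536 annotated genes: 2 ribosomal RNA (rRNA) genes, 13 protein genes and 22 transfer RNA (tRNA) genes. Of these, 15 had reads and all 15 passed the mean count of 100 required for comparing libraries, while the 22 tRNA genes were listed at 0 in every table. The tissue came from female B6CASTF1/J mice, a cross of the strains C57BL/6J and CAST/EiJ, aged 36 days. The labels call it a layer of the hippocampus. Both libraries, biological replicates 1 and 2, form 1 group and were made from 300 ng of RNA with added ERCC spike-in RNAs. The labels give each library its own biosample but 1 donor identifier for both, so the spread between them may not be a spread between mice. No condition was compared, so levels are given with that spread and no p-value was calculated.

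Mitochondria keep a small circular genome that codes for core subunits of the respiratory chain and for the rRNAs and tRNAs that translate them. Both of its strands are transcribed as long precursors, and tRNAs lying between the other genes mark where these precursors are cut. Neurons depend heavily on the respiratory chain for their energy, and copies of mitochondrial DNA, some nearly identical, are also found in the nuclear chromosomes.

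Summed expected counts were 32443493 in replicate 1 and 30125178 in replicate 2. An expected count assigns each read among the transcripts it matches and need not be whole. Neuron markers were present (4 of 4 detected, a summed level of 2827.5 TPM in replicate 1 and 2532 TPM in replicate 2), and so was the dentate granule neuron gene Prox1 at 37.8 and 42.0 TPM. TPM is transcript abundance per length, scaled to the whole library. The libraries differed in other cell types. Choroid plexus markers summed to 27.1 TPM in replicate 1 and 1303 TPM in replicate 2. A gene is called apart here where its log2 ratio of replicate 1 over replicate 2, on scaled counts, is past 0.32 in either direction. All 7 of the 10 choroid plexus markers with enough counts were apart and lower in replicate 1, and none of the 10 was at 0 in either library. Oligodendrocyte markers summed to 1511 TPM in replicate 1 and 1151 TPM in replicate 2, with 5 of 6 apart and higher in replicate 1. Astrocyte markers summed to 1139 and 1109.7 TPM, microglia markers to 63.9 and 66.0 TPM and blood markers to 476 and 441 TPM. In bulk tissue, fewer cells of a type and less RNA per cell cannot be told apart.

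The sequences of the genome bear on what the tables could measure. The genes are packed closely: of 36 neighbouring pairs, 21 touch or overlap on build mm10. The longest overlap joins mt-Atp8 and mt-Atp6, subunits of ATP synthase, over 43 bases, and mt-Nd4l and mt-Nd4, subunits of complex I, share 7 bases. In the stretches below, taken from the GENCODE M21 transcripts of the reference strain and written 5′ to 3′, capitals mark the bases shared by both genes.
mt-Atp8 end, chrM:7917-7969, plus strand: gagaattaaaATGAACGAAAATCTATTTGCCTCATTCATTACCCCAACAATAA
mt-Atp6 start, chrM:7927-7979, plus strand: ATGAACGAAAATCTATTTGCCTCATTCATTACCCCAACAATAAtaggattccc
mt-Nd4l end, chrM:10144-10173, plus strand: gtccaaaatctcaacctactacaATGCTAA
mt-Nd4 start, chrM:10167-10196, plus strand: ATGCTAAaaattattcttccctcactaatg
Only a read short enough to lie inside such an overlap would fit both genes. No 100-base stretch of any of these genes was found in another member.

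A second kind of sharing was with the nucleus. Annotated nuclear transcripts were searched for matches of at least 90% identity over at least 50 bases, and 17 pseudogenes matched a protein gene. Of these, 7 lie side by side on chromosome 1 (chr1:24611535-24616197, minus strand) over 4663 bases and repeat the mitochondrial order from mt-Co1 to mt-Nd4, with no annotated copy of mt-Atp8 among them. Within that block Gm28661 is identical to mt-Co2, Gm10925 to mt-Atp6 and Gm28437 to mt-Co3 over their whole annotated length. The 3′ ends show all that separates each pair, with the bases found only in the mitochondrial transcript in capitals.
mt-Co2 end, chrM:7657-7696, plus strand: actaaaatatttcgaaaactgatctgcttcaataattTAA
Gm28661 end, chr1:24614885-24614921, minus strand: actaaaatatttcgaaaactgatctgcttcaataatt
mt-Atp6 end, chrM:8568-8607, plus strand: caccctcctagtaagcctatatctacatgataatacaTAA
Gm10925 end, chr1:24613974-24614010, minus strand: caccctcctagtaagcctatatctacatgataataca
mt-Co3 end, chrM:9351-9390, plus strand: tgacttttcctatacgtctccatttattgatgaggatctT
Gm28437 end, chr1:24613189-24613227, minus strand: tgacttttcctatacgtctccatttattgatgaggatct
The missing letters lie at the stop codon, which mt-Co3, mt-Nd4 and mt-Cytb have only as a lone final T in the annotation. In the cell such stop codons are completed when the poly(A) tail is added.

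The other copies in the block differ from their members by a few bases or less. Gm10222 is identical to mt-Nd4l over 294 of 297 bases and Gm28439 to the first 876 bases of mt-Nd4. Gm28438 differs from mt-Nd3 by T3C and Gm29216 from mt-Co1 by A1066T, each with the mitochondrial base first, its position from the first base of the mitochondrial RNA, and then the base of the copy. Gm29216 matches mt-Co1 over 483 bases at its 3′ end, and its own first 9 bases lie outside the match. The stretches below begin where each match begins, with the differing base in capitals.
mt-Nd3 site, chrM:9459-9498, plus strand: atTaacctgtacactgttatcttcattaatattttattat
Gm28438 site, chr1:24613080-24613119, minus strand: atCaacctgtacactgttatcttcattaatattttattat
mt-Co1 site, chrM:6390-6429, plus strand: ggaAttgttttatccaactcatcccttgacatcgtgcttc
Gm29216 site, chr1:24616149-24616188, minus strand: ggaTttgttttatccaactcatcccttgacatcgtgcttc
Every possible 100-base stretch of each member was then looked up in the nuclear transcripts. In mt-Co3 only 1 of 685 stretches was not also nuclear, in mt-Co2 only 3 of 585, in mt-Atp6 only 3 of 582, in mt-Nd4l only 3 of 198 and in mt-Nd3 only 6 of 249. In mt-Nd4, 502 of 1279 stretches were mitochondrial alone, and in mt-Co1 1000 of 1446. In mt-Nd2, 30 of 939 stretches were shared. No stretch was shared by mt-Rnr1, mt-Rnr2, mt-Nd1, mt-Atp8, mt-Nd5, mt-Nd6 or mt-Cytb.

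Mitochondrial genes took 7.93% of all counts in replicate 1 and 8.06% in replicate 2 (8.00% ± 0.096, SD, n = 2). Most of that was rRNA. The labels name a spike-in profile meant for libraries with reduced rRNA, so rRNA levels are those left in the libraries as made. The large-subunit rRNA, mt-Rnr2 (chrM:1094-2675), had 1445686 counts in replicate 1 and 1419508 in replicate 2, or 4.46% and 4.71% of the library. The small-subunit rRNA, mt-Rnr1 (chrM:70-1024), had 592582 and 587089 counts, or 1.83% and 1.95%. Per base of RNA, mt-Rnr2 held 914 and 897 counts and mt-Rnr1 held 621 and 615. The ratio of mt-Rnr2 to mt-Rnr1 per base was 1.47 in replicate 1 and 1.46 in replicate 2. Both rRNAs come from the same precursor, and the ratio between them had an SD of 0.0093.

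The 13 protein genes together took 1.65% of the counts in replicate 1 and 1.40% in replicate 2. Per base, mt-Rnr2 stood 28.2 and 36.3 times above their median. For every count in an rRNA, the protein genes had 0.262 in replicate 1 and 0.211 in replicate 2, a ratio 1.24-fold higher in replicate 1 that does not depend on how the libraries are scaled. Using only the 9 protein genes with whole counts in both libraries, the ratio was 0.143 and 0.118, or 1.21-fold higher in replicate 1. Counts of these genes were not split with another gene. They include mt-Nd3, mt-Nd4l and mt-Nd4, which share most of their stretches with copies that were given 0 counts. For all 13 protein genes with the nuclear copies added, the ratio was 0.387 and 0.323, or 1.20-fold higher. The ratio was thus higher in replicate 1 under each way of counting, while its size followed which genes were counted. The ratio does depend on how much rRNA was left in each library, 6.28% of counts in replicate 1 and 6.66% in replicate 2. The cell type markers given above also differed between these libraries. Neither part in the ratio was tested.

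Complex I, the first proton pump of the chain, has 7 mitochondrial subunits. Among them mt-Nd1 (chrM:2751-3707) had 59.4 counts per base in replicate 1 and 48.1 in replicate 2, and mt-Nd4 (chrM:10167-11544) had 43.2 and 34.9. The small subunit mt-Nd4l (chrM:9877-10173) had 32.5 and 26.3 counts per base, mt-Nd2 (chrM:3914-4951) 32.4 and 24.7, mt-Nd3 (chrM:9459-9806) 26.1 and 20.2 and mt-Nd5 (chrM:11742-13565) 22.9 and 18.6. These 6 genes lie on the plus strand. Counts per base are not scaled to library size, which was larger in replicate 1. Known to share 1 mature RNA, mt-Nd4l and mt-Nd4 were compared per position at which a 100-base read can start. On that scale mt-Nd4l stood at 1.05 times mt-Nd4 in both libraries, closer than per base of full length, which counts against short RNAs.

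mt-Nd6 (chrM:13552-14070), the only protein gene on the minus strand, had 1674 counts in replicate 1 and 1720 in replicate 2, or 3.23 and 3.31 per base. It had 22.7 counts in replicate 1 and 27.6 counts in replicate 2 for every 1000 of mt-Cytb, its nearest protein gene on the other side of the tRNA gene mt-Te. Its RNA is rich in G (28.1% of bases) and poor in C (5.97%), whereas the 12 protein genes on the plus strand had 5.88% to 16.1% G and 22.1% to 29.97% C. Minus-strand genes, mt-Nd6 and 8 tRNA genes, held 0.0651% of mitochondrial counts in replicate 1 and 0.0708% in replicate 2, and 0.0356% and 0.0452% in the second quantification. All of it was mt-Nd6. Whether counting used the strand is not given in the sources used here, so reads of mt-Nd6 and of antisense RNA across it cannot be told apart, and mt-Nd5 overlaps it by 14 bases.

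For complex III, mt-Cytb (chrM:14145-15288), the cytochrome b subunit, had 73832 counts in replicate 1 and 62375 in replicate 2, or 64.5 and 54.5 per base. Along with mt-Co1 it headed the protein genes in the first quantification. Complex IV, which passes electrons to oxygen, has mt-Co1, mt-Co2 and mt-Co3 as its core. The catalytic subunit gene mt-Co1 (chrM:5328-6872) had 117.8 and 97.2 counts per base. Its partner mt-Co2 (chrM:7013-7696) had only 3.16 and 2.62, and mt-Co3 (chrM:8607-9390) had 30.1 and 19.5. In the first quantification, then, the means of mt-Co1 and mt-Co2, genes for subunits of 1 enzyme, differed 37.2-fold, and in the second 11.5-fold.

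The identical copies had large counts of their own. Gm28661, the copy of mt-Co2, had 93117 counts in replicate 1 and 80096 in replicate 2, against 2159 and 1790 for mt-Co2 itself. The copy of mt-Atp6, Gm10925, had 73117 and 68612 counts, against 34729 and 17770 for mt-Atp6. Gm28437 had 68220 and 60949, against 23593 and 15251 for mt-Co3. Gm29216, the copy of the end of mt-Co1, had 19948 and 16260. In the other 3 copies of the block, those of mt-Nd3, mt-Nd4l and mt-Nd4, the count was 0 in both libraries. These are expected counts of the first quantification. Among pairs that few or no stretches tell apart, they went almost wholly to the copy for mt-Co2. For mt-Nd3 and mt-Nd4l they went wholly to the mitochondrial gene. In the first quantification no pseudogene outside the block had more than 39.3 counts. In the second, a copy of mt-Co1 on chromosome 2 had 116 in replicate 1 and 108 in replicate 2.

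Member and copy were also counted together, as reads cannot be separated over stretches that are identical in the reference strain. The mice were hybrids, and identity of these stretches in the mice themselves was not examined. Counted together with its copy, mt-Co2 reached 139 counts per base in replicate 1 and 120 in replicate 2. mt-Atp6 (chrM:7927-8607), the proton channel subunit of ATP synthase, reached 158 and 127 with its copy, against 51.0 and 26.1 alone. mt-Co3 reached 117 and 97.2 and mt-Co1 131 and 108. These 4 then had the highest mean counts per base of the 13 protein genes, in the order mt-Atp6, mt-Co2, mt-Co1 and mt-Co3, whereas alone mt-Co2 ranked last. That order was the same in each library. Neighbours in it differed by less than their spread between libraries, on counts not scaled to library size. Over the 12 plus-strand genes the highest combined level, counted per start position, was 7.60 times the lowest.

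**Figure D1:**
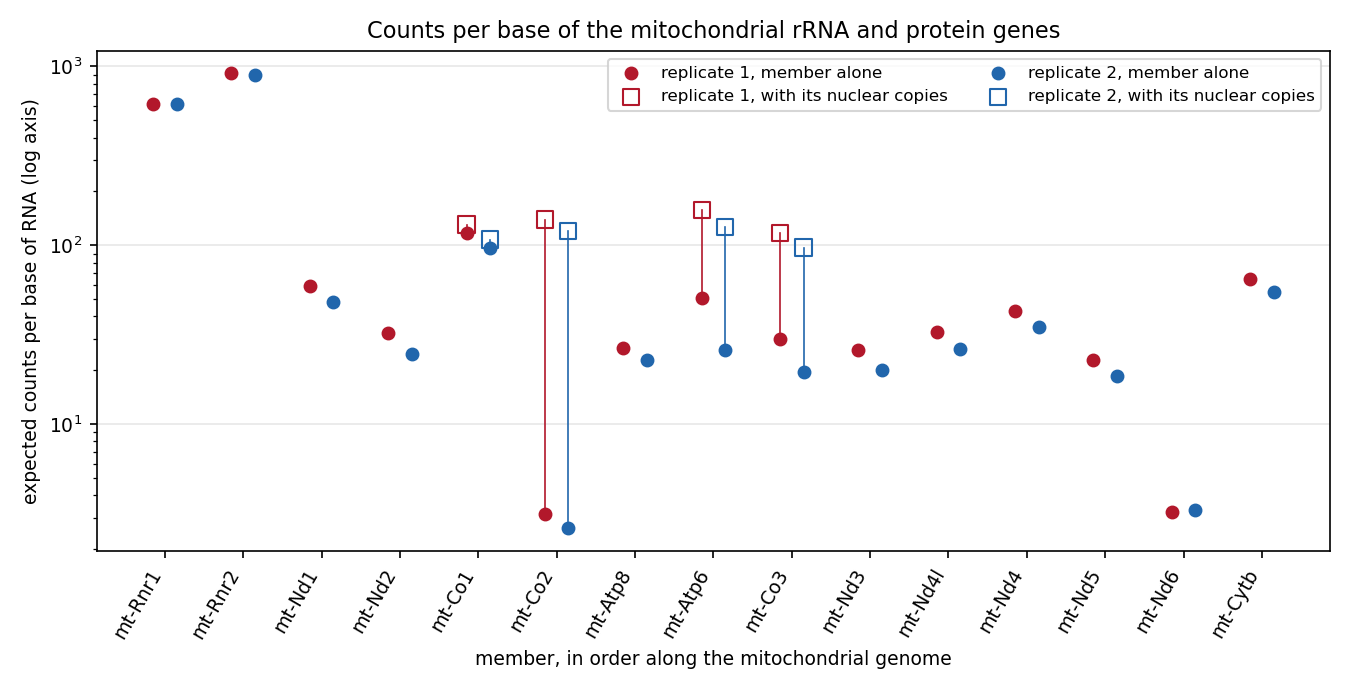
Expected counts per base of RNA (log axis) for the 2 rRNA and 13 protein genes in genome order, 1 point per library, with open squares where counts of nuclear copies were added. The rRNAs lie between 615 and 914, mt-Nd6 near 3.3, and mt-Co2 moves to 139 and 120 once its copy is included.

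ATP synthase has a second mitochondrial subunit, mt-Atp8 (chrM:7766-7969), which is read from the same RNA as mt-Atp6. It had 5435 counts in replicate 1 and 4656 in replicate 2. Per start position mt-Atp8 stood at 0.867 times mt-Atp6 in replicate 1 and 1.45 times in replicate 2. Set against mt-Atp6 with its copy the ratio was 0.279 and 0.299, steadier between libraries but further from 1.

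The tables themselves carry a sign of this uncertainty. The authors' quantification also deposited a posterior mean count with its SD, from repeated sampling of the read assignments. For mt-Co2 it was 15540 ± 3326 in replicate 1 and 14474 ± 3023 in replicate 2, against expected counts of 2159 and 1790. For mt-Co3 the posterior mean was 39399 ± 5583 and 33032 ± 2847, also well above the expected counts. Posterior means lay over 1.5-fold from the expected counts for 2 of the 15 members, mt-Co2 and mt-Co3, and for 11 of 12651 genes (0.0869%) across the table. For mt-Nd4l the posterior SD was 295 in replicate 1 and 213 in replicate 2. Its copy Gm10222, at 0 expected counts, had posterior means of 654 and 278.5. mt-Cytb, which shares no stretch, had a posterior SD of 0 in both libraries.

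A second quantification of the same reads divided the pairs otherwise. It gave mt-Co2 9.86% of the counts of member and copies in replicate 1 and 8.47% in replicate 2, where the first had given it 2.26% and 2.19%. mt-Atp6 received 72.2% and 58.1% there, against 32.2% and 20.6% in the first. For mt-Co3 the shares were 51.1% and 58.4%, against 25.7% and 20.01%. The split therefore moved by more between methods than between libraries for these 3 genes. The pair of mt-Nd4 moved the other way, with 92.5% and 90.3% kept by mt-Nd4 in the second quantification and 100% in the first.

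**Figure D2:**
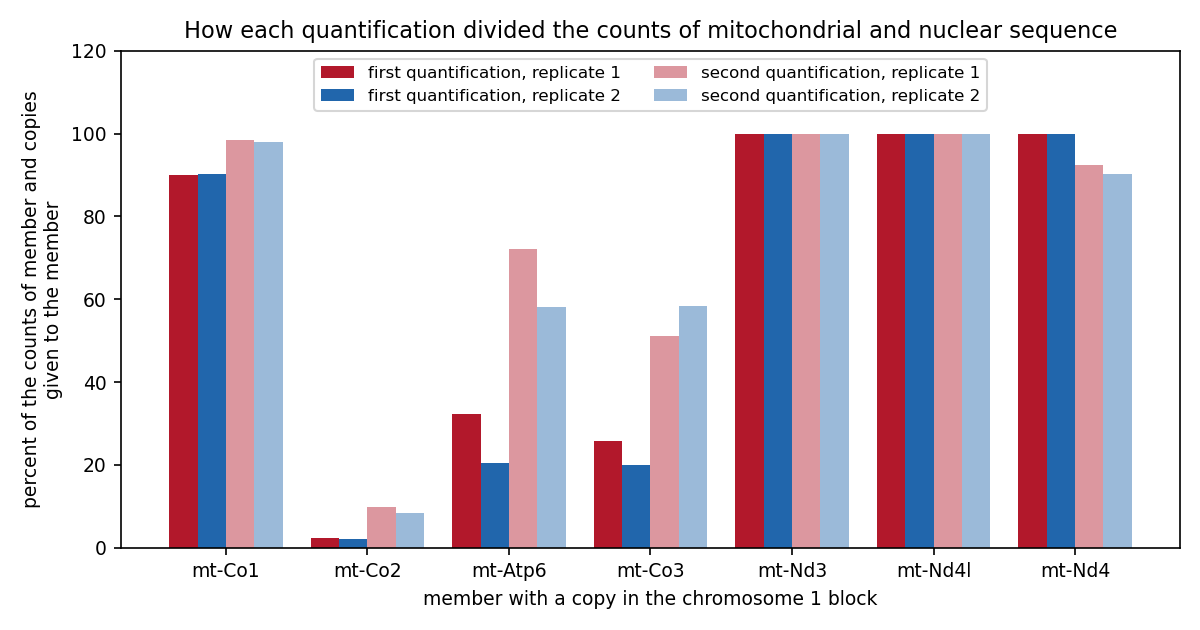
Percent of the counts of each member and its nuclear copies that was given to the member, for the 7 members with a copy in the chromosome 1 block, by quantification and library. mt-Co2 received under 10% in both quantifications, mt-Nd3 and mt-Nd4l 100%, and mt-Atp6 between 20.6% and 72.2%. In the second quantification mt-Nd4l had only 21 counts in replicate 1 and 39 in replicate 2.

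The 22 tRNA genes, 59 to 75 bases long, make up 9.72% of the summed length of the members and had 0 counts in both libraries and both quantifications. They carry each amino acid to the mitochondrial ribosome, 14 of them coded on the plus strand and 8 on the minus strand. Because all were at 0, none could be ranked or named by its level. The shortest and the longest are shown to give the size of what was not counted, with the 2 that flank mt-Rnr1.
mt-Ts2, chrM:11613-11671, plus strand: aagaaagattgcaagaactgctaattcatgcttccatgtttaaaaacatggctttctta
mt-Tl1, chrM:2676-2750, plus strand: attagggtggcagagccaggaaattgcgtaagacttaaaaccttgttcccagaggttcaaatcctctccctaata
mt-Tf, chrM:1-68, plus strand: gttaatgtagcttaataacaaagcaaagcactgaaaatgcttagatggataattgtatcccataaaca
mt-Tv, chrM:1025-1093, plus strand: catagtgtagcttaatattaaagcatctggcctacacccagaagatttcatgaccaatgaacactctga
In the first quantification the effective length was the RNA length less 99 bases, which leaves no place for a read in these RNAs. All 2398 annotated genes under 100 bases had 0 counts there, and so had all 2451 transcripts under 100 bases in the second quantification. The value of 0 is thus shared by every RNA of that size in the tables and gives no level for mitochondrial tRNAs.

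Short protein genes were affected in the second quantification as well. There mt-Atp8 (204 bases) had 0 counts in both libraries and mt-Nd4l (297 bases) had 21 and 39, where the first had 9667 and 7797. For mt-Nd3 (348 bases) the second quantification gave 2884 and 3373 counts, against 9083 and 7031, and for mt-Nd6 (519 bases) 908 and 1111, against 1674 and 1720. Other genes with a single transcript also had low ratios at such lengths. Of 46 such genes of 100 to 250 bases all had 0 in the second quantification, and over 97 genes of 250 to 500 bases the median ratio of second to first was 0.0053. It was 0.751 over 150 genes of 500 to 1000 bases, 0.975 over 325 genes of 1000 to 2000 bases and 1.075 over 965 longer genes. Among the longer members mt-Cytb stood at 0.959 and 0.983, mt-Nd5 at 0.960 and 0.990 and mt-Rnr2 at 1.06 and 1.08.

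**Figure D3:**
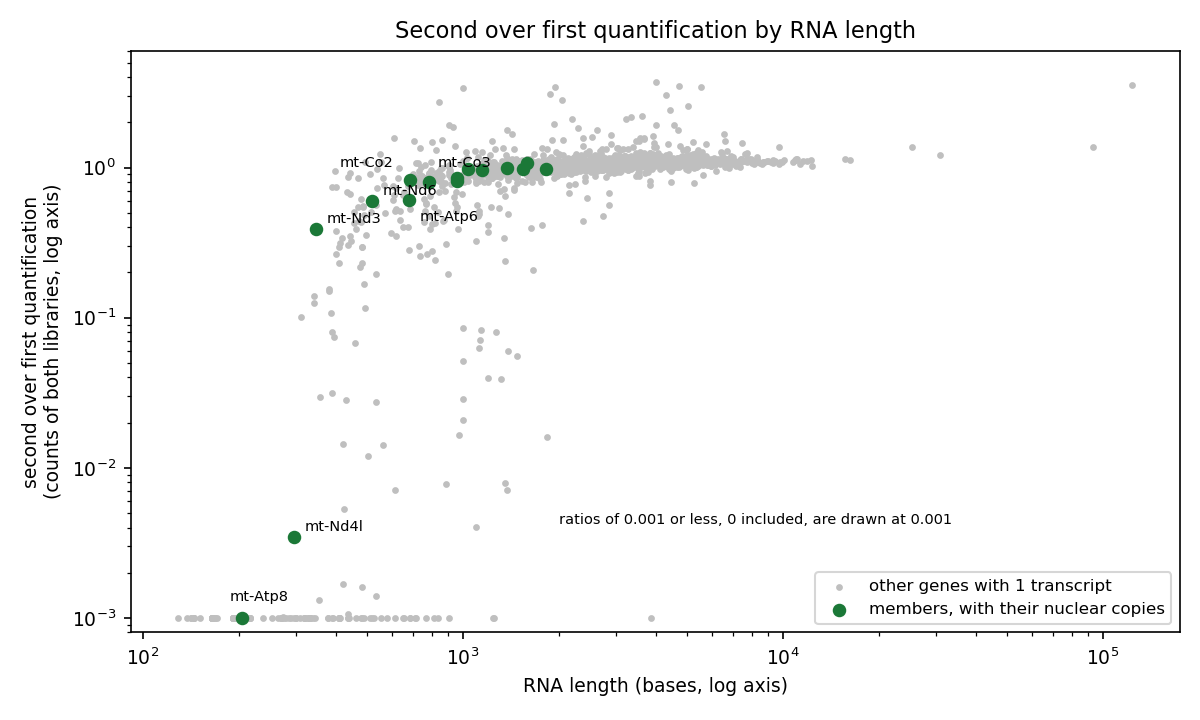
Ratio of the second to the first quantification, summed over both libraries (log axis), against RNA length (log axis) for 15 members with their nuclear copies (green) and other genes with 1 transcript and an average of at least 100 counts (grey). mt-Atp8 had a ratio of 0 and mt-Nd4l lies far below 1, as do the grey points under 500 bases, while members over 1000 bases lie near 1.

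Between the libraries, counts were scaled with TMM and compared as log2 of replicate 1 over replicate 2. Both rRNAs were slightly lower in replicate 1, mt-Rnr1 at -0.06 and mt-Rnr2 at -0.05. The median of the 13 protein genes was 0.23, against 0.01 over 12651 genes. More than 1.1-fold higher in replicate 1 were 12 of 13 protein genes, against 14.1% of all genes, and the exception was mt-Nd6 at -0.12. The 12 all lie on the plus strand and are cut from shared precursors, so they need not vary independently. The 12 ran from mt-Atp8 at 0.15, mt-Cytb at 0.17 and mt-Co2 at 0.19 through mt-Co1 at 0.20, mt-Nd5 at 0.22, mt-Nd1, mt-Nd4 and mt-Nd4l at 0.23, mt-Nd3 at 0.29 and mt-Nd2 at 0.31 to mt-Co3 at 0.55 and mt-Atp6 at 0.89. Direction depends on scaling: with the spike-ins as scale the median of all genes moved to -0.25 and that of the protein genes to -0.03, with 4 of 13 above 0, against 3.26% of all genes. In the second quantification 8 of the 11 protein genes with enough counts were higher in replicate 1, against 56.5% of all genes, with mt-Nd3 and mt-Co3 at -0.27 and -0.04 besides mt-Nd6 at -0.34.

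Apart between the libraries, past 0.32 in log2, were 2 of the 15 members, mt-Atp6 (1.85-fold higher in replicate 1) and mt-Co3 (1.47-fold higher), against 6.23% of all genes. Among genes with a mean count of at least 500, which all 15 members reach, the share apart was 1.9%. Only mt-Atp6 was apart under each scaling and in both quantifications. mt-Co3 was at 0.29 under spike-in scaling and -0.04 in the second quantification, short of the threshold in both. Spike-in scaling instead placed mt-Nd6 at -0.38 and mt-Rnr1 at -0.32 past it, and the second quantification mt-Co2 at 0.35 and mt-Nd6 at -0.34. None differed over 2-fold, against 0.466% of all genes. mt-Atp6 and mt-Co3 share nearly all their sequence with a copy. With the copies added mt-Atp6 was 1.18-fold and mt-Co3 1.14-fold higher in replicate 1, and no member was apart. The 12 plus-strand protein genes then lay between 0.14 and 0.31 in log2. With 1 library on each side these ratios have no replicate check, and the choroid plexus and oligodendrocyte markers given above moved between the same libraries. Their part was not tested.

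**Figure D4:**
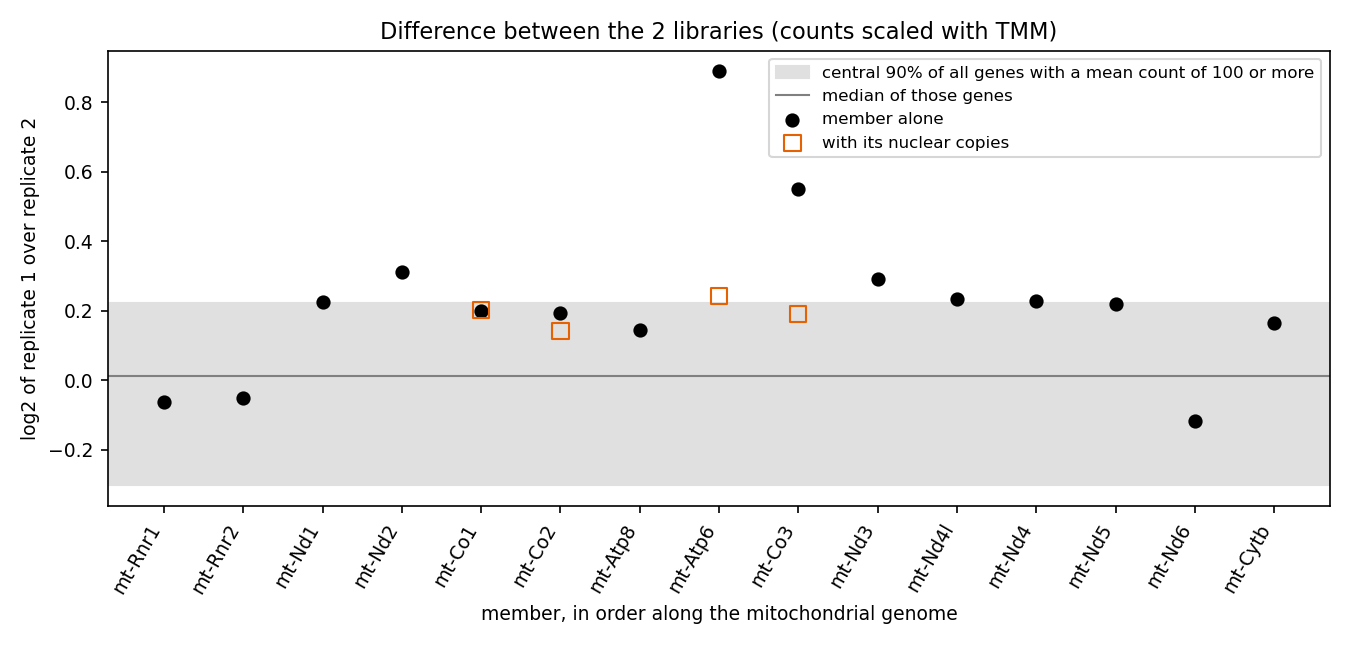
Log2 of replicate 1 over replicate 2 on TMM-scaled counts for the 15 members in genome order, alone (black) and with nuclear copies (orange), against the central 90% of 12651 genes (grey band, -0.30 to 0.22). mt-Atp6 and mt-Co3 stand at 0.89 and 0.55 alone and at 0.24 and 0.19 with their copies, and the rRNAs and mt-Nd6 lie below 0.

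Nuclear genes for subunits of the same complexes had lower RNA levels at the median. In TPM, the 36 nuclear subunit genes of complex I had a median of 84.5 ± 2.15 (SD of the medians of 2 libraries), against 1405 ± 205 for its 7 mitochondrial genes. The only nuclear one above mt-Nd6, which had 176 ± 9.44 TPM, was Ndufa3. The highest nuclear ones were Ndufa3 at 233 ± 3.40, Ndufb9 at 156 ± 3.17 and Ndufb8 at 149 ± 12.04 TPM, all accessory subunits. For complex III mt-Cytb had 2833 ± 240 TPM and the 9 nuclear genes a median of 140 ± 0.12, led by Uqcr11, Uqcrh and Uqcrq at 182 ± 7.17, 173 ± 4.02 and 169.8 ± 3.01 TPM. The mitochondrial RNAs of both complexes exceeded the nuclear median in each library, by more than the spread between libraries.

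In complex IV the 11 nuclear genes had a median of 252 ± 10.97 TPM, with Cox4i1 at 433 ± 3.54, Cox8a at 380 ± 31.2 and Ndufa4 at 313 ± 17.3 TPM. mt-Co2 alone, at 147 ± 14.4 TPM, lay below 8 of them, whereas with its copy it had 6586 ± 478 TPM. In complex V the 14 nuclear genes showed a median of 150 ± 1.57 TPM, with the catalytic Atp5b at 707 ± 11.99, then Atp5a1 at 299 ± 0.48 and the ring subunit gene Atp5g3 at 217 ± 8.41 TPM. There mt-Atp8 had 2089 ± 156 and mt-Atp6 1949 ± 830 TPM alone, or 7249 ± 885 TPM with its copy. In these 4 lists no nuclear subunit gene that met the count minimum was apart between the libraries, against 6.23% of all genes. Nearly all the nuclear subunit genes tested had a mean count of at least 500, and among such genes the share apart was 1.9%. The median log2 ratios of the 4 lists were 0.04 for complex I, 0.05 for complex III, 0.04 for complex IV and 0.00 for complex V. Over all genes tested the median was 0.01.

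**Figure D5:**
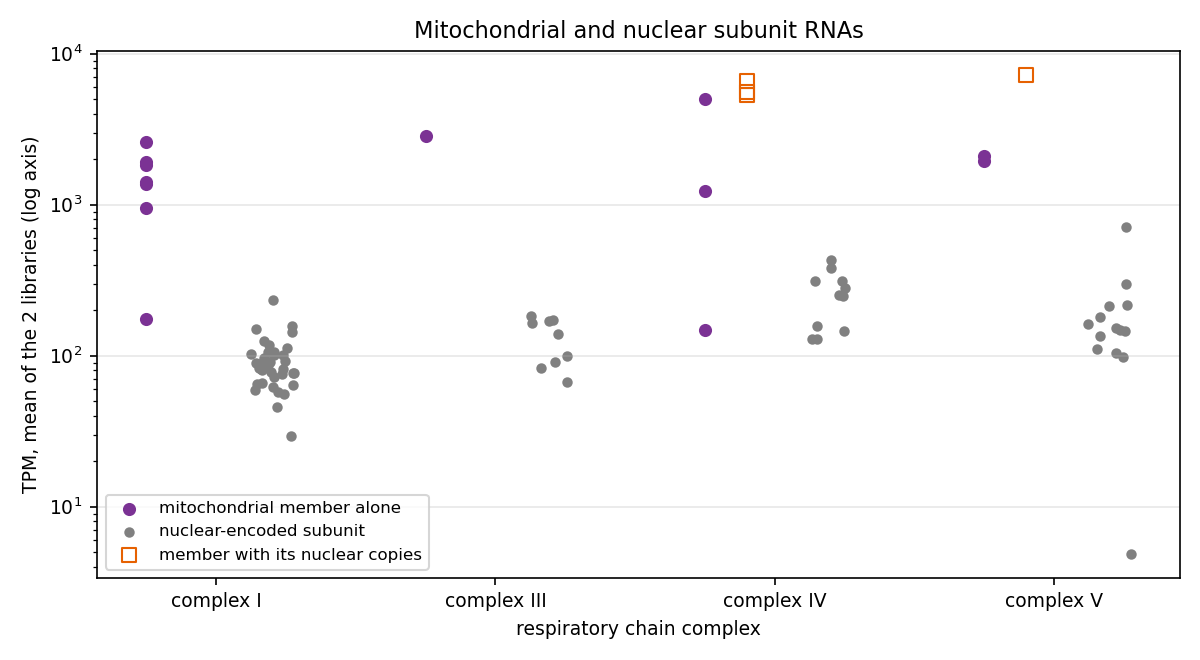
Mean TPM of the 2 libraries (log axis) for mitochondrial members (purple), members with their nuclear copies (orange) and nuclear-encoded subunits (grey) of complexes I, III, IV and V. Nuclear subunits lie at 707 TPM or less, mt-Co2 alone lies among them at 147 TPM and with its copy at 6586 TPM.

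The nuclear genes that serve the mitochondrial genome all reached 1 TPM in each library and were low. The 15 genes of transcription and DNA maintenance had a median of 8.55 ± 0.46 TPM, with the DNA polymerase gene Polg at 37.2 ± 3.34, the RNA polymerase gene Polrmt at 19.9 ± 0.11 and the DNA-packaging and transcription factor gene Tfam at 17.2 ± 2.03 TPM. The 20 genes of RNA processing and stability lay at a median of 12.1 ± 0.035 TPM, with Fastk at 46.7 ± 2.35, the exonuclease gene Rexo2 at 39.0 ± 1.11 and the RNA-binding protein gene Grsf1 at 37.2 ± 2.45 TPM. The 22 genes of the tRNA synthetase list had a median of 9.80 ± 0.049 TPM. Its highest were Gars at 53.1 ± 0.40 and Kars at 30.005 ± 2.34, which also serve the cytosol, and the leucyl-tRNA synthetase gene Lars2 at 27.5 ± 5.91 TPM. The list also holds Gatb, Gatc and Qrsl1, genes for subunits of an amidotransferase and not synthetases. The 18 genes of tRNA and rRNA modification had a median of 6.08 ± 0.011 TPM, with Nsun2 at 33.6 ± 2.44, the CCA-adding enzyme gene Trnt1 at 20.97 ± 1.57 and Trmu at 13.5 ± 0.11 TPM. Apart were 1 of 13 tested genes in the first of these lists, the DNA maintenance exonuclease gene Mgme1 (1.34-fold higher in replicate 1), and 1 of 22 genes in the synthetase list, Lars2 (1.33-fold higher), against 6.23% of all genes. In the other 2 lists no gene was.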

How the data were processed

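Each library had a gene table and 2 transcript tables on mouse build mm10 with GENCODE M21, per the file headers and accompanying notes. The first set holds expected counts, TPM and the percent of a gene's TPM per transcript, as deposited. It also holds posterior means, posterior SDs and bounds on TPM, used as scores that the authors' software gave. The second holds the authors' estimated counts and TPM. The column names are those of RSEM and kallisto. Software, versions and use of strand were not given in the sources used here. RNA lengths came from the deposited tables.

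Gene and transcript tables gave identical values for all 37 members. Entries with a number for a name were left out of library sizes. A count within 0.005 of a whole number was called whole. Scaling over the whole table used TMM from edgeR 4.0.16 under R 4.3.3, on expected counts rounded to whole numbers, and log2 ratios used a prior count of 0.5. This step was checked on simulated data. Also tried were size factors from DESeq2 1.42.0, total, spike-in and TPM scaling, the second quantification, other count minimums and folds, and each replicate alone. Copies were found with BLAST+ 2.17.0 against GENCODE M21 transcripts. Combined TPM places all counts of member and copies on the member's effective length. A protein-coding gene with a short match was left out of the copies. Python 3.11.15 with pandas 2.3.3 did the rest.

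Members and lists were chosen with earlier results of these data known. Named were all rRNA and protein members, in each nuclear list the 3 genes with the highest TPM and any over 1.5-fold apart with a mean count of 100 or more, of which there were none, and copies with a mean count of 1000 or more. Mgme1 and the copies with 0 counts were named after their values were seen. Of the listed nuclear genes, Atp5pb and Prorp did not match the annotation by name.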

Additional observations from a re-analysis of the deposited data

How the results depend on the processing

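The mitochondrial share of counts, 8.00%, was 7.91% in the second quantification, 8.76% with nuclear copies and 8.31% with both, and ran from 7.93% to 8.06% with either replicate left out. The ratio of protein gene to rRNA counts, 0.236, was 0.242 in the second quantification, 0.355 with copies, 0.304 with both and 0.131 over genes with whole counts, and ran from 0.211 to 0.262 with either replicate left out. The larger values with copies and the smaller one over whole counts follow from the genes summed; for the others the cause was not tested. mt-Rnr2 stood 32.2 times above the median protein gene per base, 26.2 times in TPM and 23.4 times with copies, with a range of 28.2 to 36.3 over single replicates. The minus-strand share, 0.0679%, was 0.0404% in the second quantification and 0.0651% to 0.0708% over single replicates. Members apart numbered 2 (6.23% of all genes), and 12 at 1.1-fold (29.2%), 1 at 1.5-fold (1.34%) and 0 with copies added. There were 3 under spike-in scaling (28.4%) and 3 in the second quantification (6.82%), not the same genes, and 2 under the other scalings and minimums (1.9% to 40.5%). The median log2 ratio of the protein genes, 0.23, turned to -0.033 under spike-in scaling. A change of scale shifts every gene alike, and the median of all genes moved from 0.01 to -0.25. The number of protein genes above the median of all genes, 12 of 13, therefore had to be the same under both scalings. In the second quantification it was 8 of 11. Why the spike-ins gave another scale was not tested. Combining members with copies, apart from the share and the ratio in the first quantification, was chosen after seeing the data. Both libraries form 1 group: No paired analysis was possible because no second group shares their replicate numbers. With 1 library on each side of every ratio, small differences between libraries could not be judged.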
